A study of Mus musculus with 12 samples.

Results

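The jejunum of untreated TLR2 knockout mice was set against that of untreated wild-type mice, 3 animals per genotype, to describe how the genotypes differ before any injury. These 6 arrays are 6 of the 12 in the series, and the comparison ran over all 18820 genes that had a probe set paired with a single gene symbol. The wild-type mice carried the strain label C57BL6/J and the knockout mice the label B6.129-Tlr2tm1Kir/J, a germline targeted allele, so that every cell of the animal lacks the intact gene. RNA came from whole proximal jejunum of separate animals, and each RNA was run on its own Affymetrix array. Age, sex and housing are not given in the labels, nor whether the genotypes were littermates. The other 6 mice, 3 of each genotype, had received methotrexate at 40 mg/kg per day for 4 days, with tissue taken on day 7. They entered the same statistical fit, and their values are given only beside genes described at baseline.

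TLR2 is a cell surface receptor of the innate immune system that recognises bacterial lipoproteins and related cell wall products. It acts as a pair with TLR1 or TLR6 and signals through the adaptor MyD88 to NF-kappaB and cytokine genes. In the gut it is found on epithelial and immune cells that meet the microbiota, and it has been studied mainly for its part in barrier upkeep and in responses to injury.

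All values are log2 signals, on which a difference of 1 is a doubling. The 6 arrays correlated with Pearson's r between 0.964 and 0.992 over all probe sets, named or not, and their median signals over these lay between 4.37 and 4.53. Genes of jejunal enterocytes were bright on all of them (Sis, sucrase-isomaltase, 11.58 to 11.81, and Lct, lactase, 11.25 to 11.97), and the ileal bile acid binder Fabp6 lay between 2.46 and 2.61. Xist, transcribed from the inactive X chromosome, lay between 9.7 and 10.52 on the 6 arrays, and the Y-linked Kdm5d between 2.27 and 2.47. The tissue pieces did not hold the same structures. The mean of 14 pancreatic acinar genes was 4.35, 11.87 and 11.92 in wild-type replicates 1, 2 and 3, and 5, 12.11 and 12.21 in knockout replicates 1, 2 and 3. Pancreatic RNA was thus high in replicates 2 and 3 and low in replicate 1 of both genotypes. Wild-type replicate 1 also had the highest mean of 14 adipocyte genes, 6.94 against 5.52 to 5.84 in the other 5 arrays.

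The targeted gene itself did not separate the genotypes in untreated mice. Tlr2 (probe set 10498992) was measured at 4.37, 4.65 and 4.38 in wild-type mice and at 4.36, 5.02 and 5.01 in knockout mice. The ranges overlapped, and the knockout mean was 0.32 ± 0.23 (SE) higher, with an adjusted p of 0.812 in limma's moderated test. In treated mice the same probe set was at 4.49, 4.65 and 4.51 in wild-type and at 6.18, 5.46 and 5.28 in knockout mice. That difference was 1.09 ± 0.23 (adjusted p = 0.00285 with limma), and 24.2% of all genes were likewise separated upward there. Whether these probes lie inside or outside the disrupted stretch cannot be read from the files, so the level checks neither the genotype nor the labels. The co-receptors of TLR2 did not pass the test either. Tlr1 was at 5.13, 5.32 and 5.45 against 5.18, 4.98 and 4.77 in knockout mice, and Tlr6 at 3.2, 3.03 and 3.07 against 2.94, 2.93 and 3.07. Myd88, the shared adaptor, differed by -0.01 ± 0.11.

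Among 21 Toll-like and other pattern receptor genes none was called. On 3 of them all knockout arrays lay below all wild-type arrays, as on 5.63% of all genes, and on 1 they lay above, as on 7.47% of all genes. The 3 were Tlr11, a mouse receptor for parasite profilin (3.3, 3.65 and 3.91 against 3.22, 3.14 and 3.18), Tlr4, the lipopolysaccharide receptor (-0.27 ± 0.13), and Unc93b1, the chaperone of endosomal receptors (-0.27 ± 0.15). The 1 was Ly96, the MD-2 partner of TLR4, at 0.45 ± 0.26. Of 25 signalling genes downstream of these receptors, none was called and 4 were separated, 2 in each direction, against the same shares of all genes. They were the kinase Map3k7 (0.28) and its partner Tab1 (0.07) above, and Tab3 (-0.23) and the kinase Irak2 (-0.3) below. The median log2 difference was -0.12 over the receptors and 0.08 over the signalling genes, against 0.02 over all genes.

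The flanks of a targeted gene can keep sequence from the strain of the embryonic stem cells, so the 20 measured genes on each side of Tlr2 in RefSeq gene order were examined. None of these 40 genes was called, 3 had an unadjusted p under 0.05, and the median difference was -0.02, with a range from -0.63 to 0.43. On 4 of them the knockout arrays lay below the wild-type arrays and on 0 above, against 5.63% and 7.47% of all genes. Arfip1, a regulator of vesicle traffic 4 places from Tlr2, was at 6.9, 7.12 and 6.85 in wild-type mice and at 6.58, 6.32 and 6.12 in knockout mice (-0.62 ± 0.16, adjusted p = 0.744 with limma). Arfip1 was the 1 gene of the 4 whose arrays were also separated, in the same direction, in the treated mice. Pdgfc, a growth factor of mesenchymal cells, differed by -0.63 ± 0.18 in untreated mice and by 0.44 ± 0.18 in treated mice.

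Across the transcriptome 2 genes passed the threshold of an adjusted p under 0.05, which is 0.0106% of the 18820 tested. Mmrn1 rose and Cyp1a1 fell in the knockout. An unadjusted p under 0.05 was reached by 1165 genes (6.19%), 702 higher (3.73%) and 463 lower (2.46%). The median difference over all genes was 0.02, with quartiles at -0.1 and 0.15, and 69 genes differed by at least 1. Arrays of the genotypes did not overlap for 2466 genes (13.1%), with the knockout above for 1406 (7.47%) and below for 1060 (5.63%). With the replicate number as a block and only the 6 untreated arrays in the fit, 21 genes were called, 16 higher and 5 lower. That setting was added after the data were seen. The planned replicate block over all arrays of the series called 2 genes, Mmrn1 and Cyp1a1. With arrays weighted by their quality 558 were called.

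**Figure D1:**
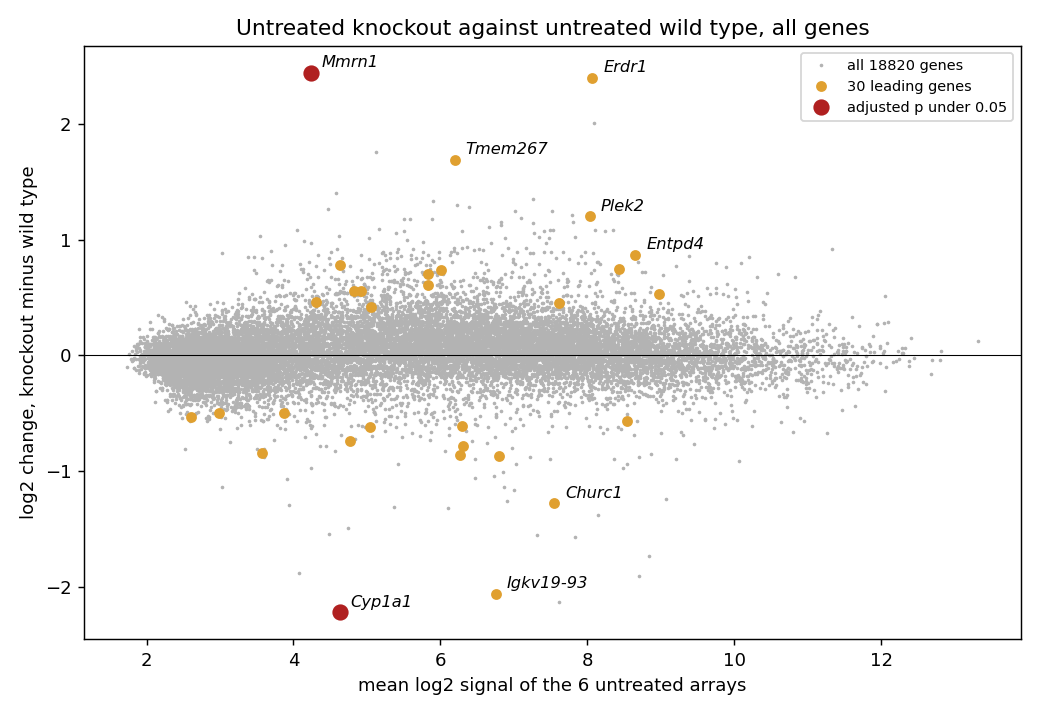
Log2 difference (knockout minus wild type, 3 mice each) against the mean log2 signal of the 6 untreated arrays, 1 point per gene. Large red points are the 2 called genes, Mmrn1 at 2.44 and Cyp1a1 at -2.22, and orange points are the 30 genes with the smallest p whose arrays do not overlap; most other genes lie close to 0.

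Mmrn1 (probe set 10538706) encodes multimerin 1, a large protein stored in platelets and endothelial cells that binds factor V. Its signal was 3.17, 3 and 2.87 in wild-type mice and 5.46, 5.47 and 5.43 in knockout mice. The 3 knockout values lay within a few hundredths of each other and far above all wild-type values. The wild-type signal was dim, as it was in treated wild-type mice (2.82, 2.77 and 2.86). The difference was 2.44 ± 0.15 (SE), a 5.41-fold higher signal with a 95% confidence interval of 2.11 to 2.76 on the log2 scale, and limma's adjusted p was 7.01e-05. Mmrn1 was called in all 25 other settings tried, with adjusted p from 1.31e-06 to 0.00451. In the treated mice the knockout was higher by 3.99 ± 0.15 (adjusted p = 1.24e-08 with limma). These are other animals, but their arrays enter the same fit, so both differences share its estimate of the spread. Of the other genes of blood and lymphatic endothelium, where Mmrn1 is also expressed, 1 of 17 was separated upward (Prox1, the lymphatic master regulator, 0.39 ± 0.19) and 1 downward (Cdh5, VE-cadherin, -0.28 ± 0.11). Of all genes 7.47% were separated upward and 5.63% downward. A deletion that takes out Mmrn1 is known from the C57BL/6JOlaHsd substrain, while the labels here give C57BL6/J. No other gene of that deletion is described here, and the part of the wild-type substrain in this difference was not tested.

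Cyp1a1 (probe set 10585749) encodes a cytochrome P450 that oxidises polycyclic aromatic compounds and is the best known target of the aryl hydrocarbon receptor, a sensor of dietary and microbial ligands. It was at 5.79, 5.45 and 5.97 in wild-type mice and at 3.2, 3.78 and 3.59 in knockout mice. Every knockout value lay at least 1 unit below every wild-type value. Cyp1a1 fell by 2.22 ± 0.27 on the log2 scale (a 4.64-fold lower signal, 95% confidence interval -2.8 to -1.63, adjusted p = 0.0425 with limma). It was also lower in the treated knockout mice, by -3.73 ± 0.27 (adjusted p = 9.45e-07). This call was close to the threshold: it was kept in 15 of 25 other settings and lost when any 1 of the 6 untreated arrays was left out, with adjusted p between 0.11 and 0.326. Leaving out replicate 2 of either treated group also ended it, at adjusted p of 0.0731 for the wild type and 0.11 for the knockout, while the difference stayed between -2.36 and -1.86 in all 25 settings.

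The receptor binds DNA at a short core. In the 250 bases before the start of Cyp1a1, taken from RefSeq on GRCm38.p6 at chr9:57697363-57697612, plus strand, the core GCGTG was searched on both strands and found 1 time, in capitals below, its first base 54 bases before the start.
Cyp1a1: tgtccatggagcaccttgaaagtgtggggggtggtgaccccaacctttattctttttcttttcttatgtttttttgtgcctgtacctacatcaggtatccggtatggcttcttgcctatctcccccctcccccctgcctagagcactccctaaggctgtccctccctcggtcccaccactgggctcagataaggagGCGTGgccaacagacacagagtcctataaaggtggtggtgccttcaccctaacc
Of 32851 promoters of this length, 28.2% hold the same 5 letters, so the match is common and is given as a description of the sequence only.

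Genes of foreign compound metabolism, a list that includes Cyp1a1, were lower in the knockout more often than higher. Of 28 measured members, 1 was called (Cyp1a1), 24 had a lower knockout mean, and 10 had all knockout arrays below all wild-type arrays against 0 above. The share of all genes separated downward was 5.63%, and the median over the list was -0.3 against 0.02 over all genes. That median was -0.49 between the replicate 1 mice and -0.16 between replicates 2 and 3. The list mean was 9.69, 9.57 and 9.56 in wild-type mice and 8.93, 9.3 and 9.29 in knockout mice. In replicates 2 and 3 alone, 16 members were separated downward and 3 upward, where 22.8% and 23.2% of all genes were. Cyp2c29, a retinoid and drug hydroxylase, was at 9.99, 9.44 and 9.54 in wild-type mice and at 6.33, 8.46 and 8.46 in knockout mice (-1.91 ± 0.52). Knockout replicate 1 was the lowest of the 6 by more than 2 units. Cyp2j6, an epoxygenase of arachidonic acid, differed by -0.67 ± 0.17, the carboxylesterase Ces2a by -0.66 ± 0.2, and Cyp3a11, the main inducible drug oxidase, by -0.54 ± 0.27. None of these 4 was called with limma, with adjusted p between 0.744 and 0.788.

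Values of 3 other genes known as aryl hydrocarbon receptor targets are given beside Cyp1a1. Cyp1b1, a related cytochrome, was at 4.61, 4.44 and 4.27 against 4.52, 3.76 and 3.8 in knockout mice. Ahrr, the repressor that the receptor induces, was at 4.97, 4.49 and 4.43 against 4.8, 4.08 and 4.06. Both overlapped between the genotypes, as did the quinone reductase Nqo1 (-0.18 ± 0.31). The receptor itself, Ahr, a gene chosen after its values were seen, was at 7.62, 7.95 and 7.89 against 7.41, 7.85 and 7.73.

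The 30 genes with the smallest p whose arrays did not overlap comprised 16 with higher and 14 with lower knockout values. Their limma adjusted p ranged from 7.01e-05 to 0.727, and only Mmrn1 and Cyp1a1 were called. With arrays weighted by quality all 30 passed, the largest adjusted p being 0.0436 for Phf3. Entpd4, a Golgi nucleotide hydrolase, came next. It was at 8.1, 8.3 and 8.25 in wild-type mice and at 9.05, 9.03 and 9.19 in knockout mice (0.87 ± 0.11, adjusted p = 0.0565), and it passed the threshold in 5 of 25 other settings. Churc1, a zinc protein named for its role in early neural development, was at 8.06, 8.14 and 8.37 against 6.88, 6.84 and 7.01 (-1.28 ± 0.18, adjusted p = 0.0917). It passed in 4 of 25 other settings, among them the replicate block on the untreated arrays alone (adjusted p = 0.0149). With the planned replicate block over all arrays of the series, Churc1 was not called (adjusted p = 0.324). In both genes the gap between the genotypes was wider than the spread within either.

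Several further genes among the 30 differed by more than 1. Erdr1, a gene near the pseudoautosomal boundary, was at 7.03, 5.8 and 7.78 in wild-type mice and at 9.13, 9.04 and 9.65 in knockout mice (2.4 ± 0.56). Its wild-type values were spread over nearly 2 units. Tmem267, a membrane protein of little known function, was at 5.31, 5.24 and 5.5 against 6.32, 7.39 and 7.4 (1.69 ± 0.36). Plek2, a membrane-binding protein of the actin cytoskeleton, was at 7.5, 7.41 and 7.42 against 8.89, 8.36 and 8.66 (1.2 ± 0.23). Igkv19-93, an immunoglobulin kappa variable segment, was at 7.73, 7.25 and 8.38 against 6.46, 5.58 and 5.15 (-2.06 ± 0.41). None of these 4 was called with limma, with adjusted p of 0.648 to 0.727. With the replicate block on the untreated arrays alone the adjusted p was 0.0188 for Erdr1, 0.0433 for Tmem267 and 0.0348 for Plek2. That setting was added after the data were seen. With the planned replicate block over all arrays of the series, none of these 4 was called. The adjusted p was then 0.651 for Erdr1 and 0.634 for Tmem267, Plek2 and Igkv19-93.

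The smaller differences among the 30 fell on genes of many kinds. Trmt112, a cofactor of RNA and protein methyltransferases, differed by 0.53 ± 0.09, the phosphatases Dusp3 and Dusp18 by 0.7 and 0.56, and the collagen gene Col5a1 by 0.42. Lower in knockout mice were the kinase Prkch (-0.78), the hexose transporter Slc2a7 (-0.57), the cytochromes Cyp3a44 (-0.74), Cyp2j11 (-0.53) and Cyp2j12 (-0.5), and Oas1d (-0.84), an interferon-related synthetase homologue. Col5a1 was the least steady of them, at 0.11 in its lowest setting, the one that averaged its 2 probe sets. The 2 probe sets thus did not give the same difference, and 0.42 is that of the brighter one.

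**Figure D2:**
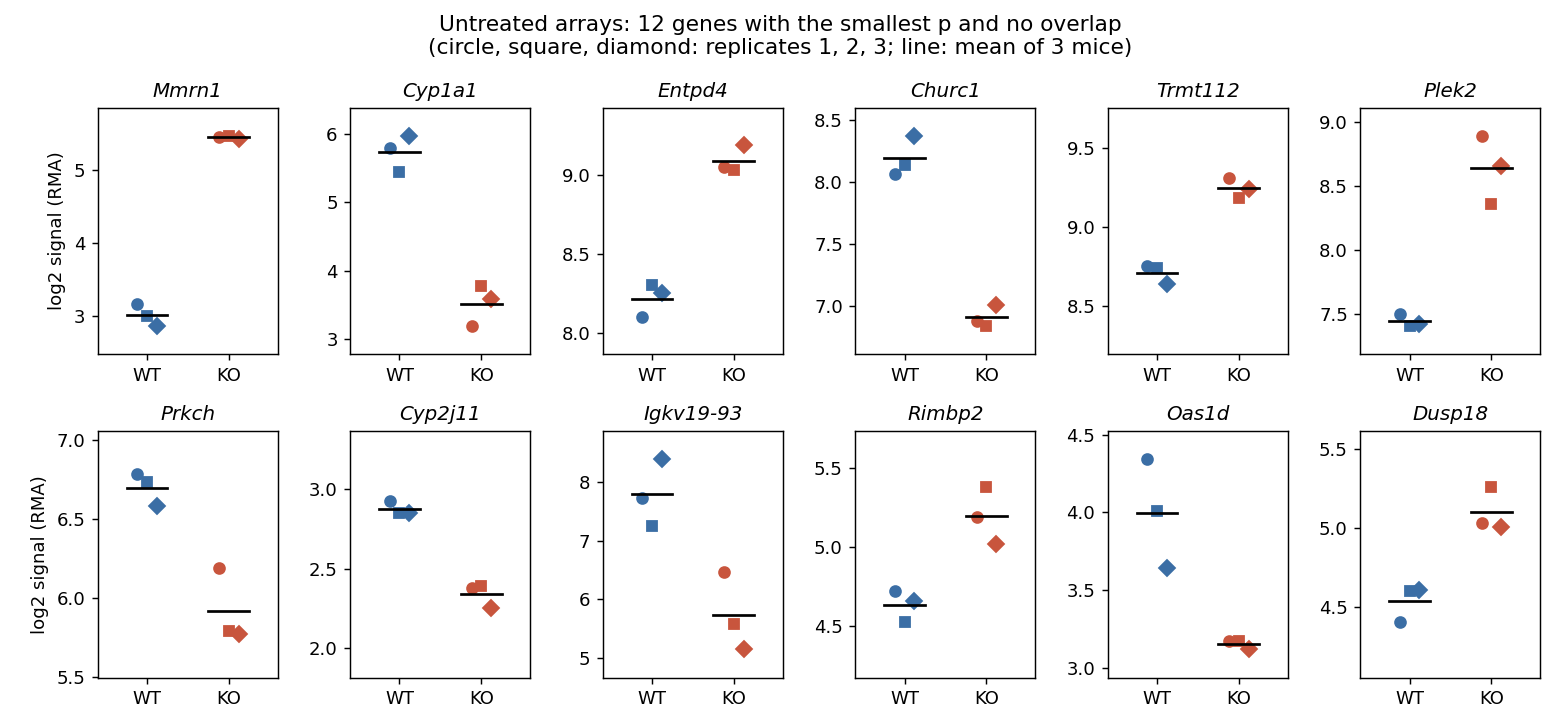
Log2 signal of each untreated mouse for the 12 genes with the smallest p among those whose arrays do not overlap; circle, square and diamond are replicates 1, 2 and 3, and the line is the mean of 3 mice. The vertical axes differ between panels and do not start at 0. The 3 knockout values of Mmrn1 nearly coincide, from 5.43 to 5.47, while those of Igkv19-93 range from 5.15 to 6.46.

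Genes of T cells and of the lymphocytes that sit in the epithelium held the largest share of lower separated members among the 45 lists. Of 25 measured members none was called with limma, but 13 had all knockout arrays below all wild-type arrays and 0 had them above, where 5.63% of all genes were separated downward. An unadjusted p under 0.05 was reached by 11 members, all lower, against 2.46% of all genes. The knockout mean was lower for 22 of the 25, and the median difference was -0.4. Averaged over the list, the wild-type mice were at 5.46, 5.33 and 5.26 and the knockout mice at 5.01, 4.91 and 4.82. The genotypes did not overlap in this mean. In bulk tissue, fewer cells of a type and less RNA per cell cannot be told apart.

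Cd8a, the coreceptor chain carried by most intraepithelial T cells, was at 6.96, 6.65 and 6.48 in wild-type mice and at 5.71, 5.93 and 5.86 in knockout mice (-0.86 ± 0.18, adjusted p = 0.648 with limma). Itgae, the CD103 integrin chain that tethers these cells to epithelial E-cadherin, was at 6.57, 6.51 and 6.74 against 5.97, 5.83 and 6.18 (-0.61 ± 0.14). Cd7, a glycoprotein of T and natural killer cells, was at 9.23, 8.91 and 8.91 against 8.18, 8.15 and 7.89 (-0.94 ± 0.26). The lowest wild-type value was above the highest knockout value in each of the 3. Subunits of the T cell receptor complex lay on the same side, with Cd3g at -0.9 ± 0.29, Cd3e at -0.76 ± 0.27, Cd3d at -0.57 ± 0.24 and Cd247 at -0.27 ± 0.18. Zap70, the kinase recruited to that complex, differed by -0.83 ± 0.22. Cd4, the coreceptor of helper T cells, differed by -0.19 ± 0.3.

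The cytotoxic granule genes showed differences of like size. Gzma, granzyme A, was at 7.45, 7.1 and 7.52 in wild-type mice and at 6.17, 6.45 and 6.43 in knockout mice (-1.01 ± 0.25). Gzmb, granzyme B, was at 7.51, 7.42 and 7.22 against 6.19, 6.62 and 6.94 (-0.8 ± 0.25). Nkg7, a granule membrane protein, was at 7.41, 7.25 and 7.02 against 6.61, 6.34 and 6.13 (-0.87 ± 0.19). All 3 were separated, and none was called. Klrd1, the CD94 receptor of natural killer and cytotoxic T cells, differed by -0.62 ± 0.14, and Klrb1f, of the same gene complex, by -0.5 ± 0.1. Ccl5, a chemokine made by cytotoxic lymphocytes, was at 8.89, 9.05 and 8.99 against 7.81, 8.16 and 8.05 (-0.97 ± 0.39). Its adjusted p was 0.786 in the fit over 12 arrays and 0.0467 with the replicate block on the untreated arrays alone.

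The list median was -0.5 between the replicate 1 mice of each genotype, where pancreatic RNA was low, and -0.4 between replicates 2 and 3, where it was high. In replicates 2 and 3 alone, 18 members were separated downward and 1 upward, where 22.8% and 23.2% of all genes were. Over 25 other settings it ranged from -0.54 to -0.31. In the treated mice 11 of the 25 members were separated downward and 2 upward, against 22% and 24.2% of all genes, with a median of -0.54.

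**Figure D3:**
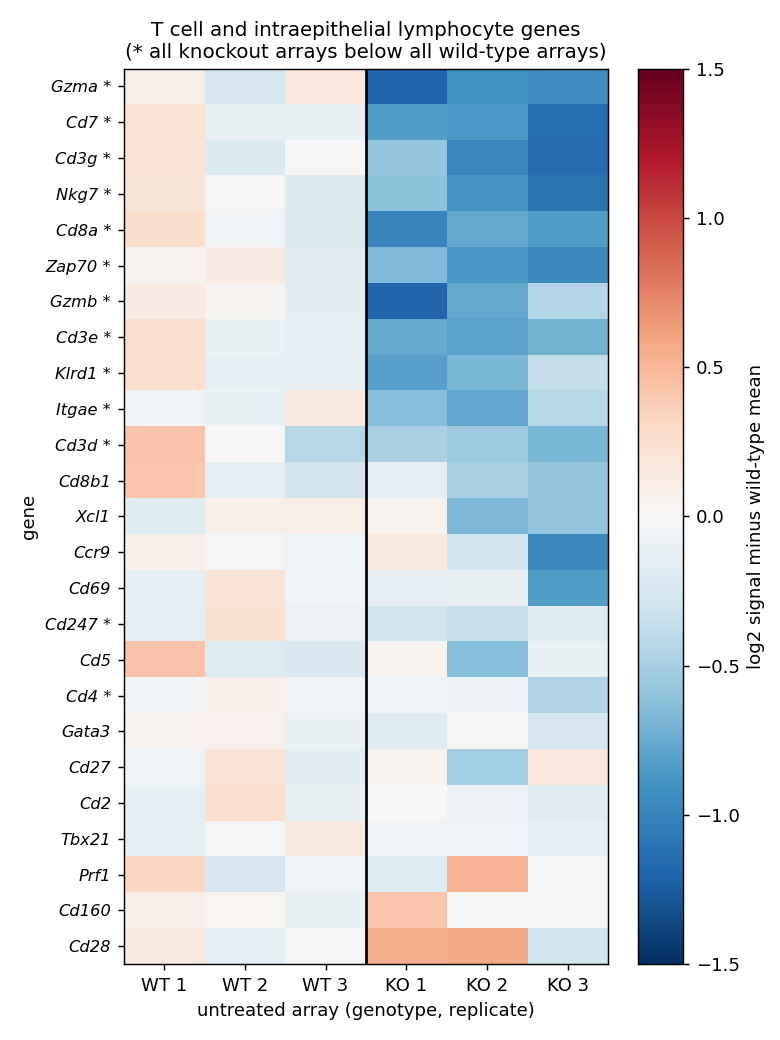
Log2 signal minus the wild-type mean for 25 genes of T cells and intraepithelial lymphocytes, 1 column per untreated mouse, with the genotypes parted by the black line; blue is lower, and an asterisk marks genes whose knockout arrays all lie below all wild-type arrays. The 13 marked genes are blue in all 3 knockout columns, with differences of means down to -1.01 for Gzma.

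Myeloid genes were also below wild type more often than above. Of 26 genes of macrophages, monocytes and dendritic cells none was called, 8 were separated downward and 0 upward, where 5.63% and 7.47% of all genes were, and the median was -0.2. Itgax, the CD11c integrin of dendritic cells and gut macrophages, was at 6.94, 6.67 and 6.43 against 6.35, 5.67 and 6.06 (-0.65 ± 0.19). Siglec1, a sialic acid receptor of resident macrophages, was at 4.99, 5.16 and 5.12 against 4.59, 4.38 and 4.49 (-0.61 ± 0.19), and Mertk, a receptor for the uptake of dying cells, differed by -0.46 ± 0.19. The median was 0.05 between the replicate 1 mice and -0.36 between replicates 2 and 3, where pancreatic RNA was high. In treated mice it was 1.35, with 16 members separated upward and 2 downward, where 24.2% and 22% of all genes were. Siglec1 differed by 1.3 ± 0.19 there. Of 16 neutrophil genes 7 were separated downward and 2 upward, against 5.63% and 7.47% of all genes. Several of these were dim, such as Mmp8 at 2.42 to 2.61. The neutrophil median was -0.13, and in treated mice it was 1.54, with 11 members separated upward and 1 downward. Mmp9 differed by 2.82 ± 0.2 in treated mice. Mmp9, a matrix protease, was at 7.07, 7.5 and 7.32 against 6.78, 6.69 and 6.48, and Ltf, lactoferrin, at 4.12, 3.88 and 4.21 against 3.38, 3.55 and 3.48. All 10 genes of MHC class II presentation had a lower knockout mean, with a median of -0.23, and none was separated. Their median was -0.06 between the replicate 1 mice and -0.34 between replicates 2 and 3, where pancreatic RNA was high and 9 of the 10 were separated downward against 22.8% of all genes.

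Of 36 cytokine and chemokine genes, 5 were separated downward (5.63% of all genes) and 1 upward (7.47% of all genes), with a median of -0.1. Tnf, a central product of TLR signalling, was at 4.56, 4.73 and 4.77 in wild-type mice and at 4.38, 4.12 and 3.97 in knockout mice (-0.53 ± 0.2, adjusted p = 0.786 with limma). In treated mice the Tnf difference was 0.41 ± 0.2 (interaction adjusted p = 0.0314 with limma). Il1b was at 4.21, 4.08 and 3.99 against 4.33, 3.93 and 4.64, with overlapping values. The upward gene was Ccl28, an epithelial chemokine that draws IgA plasma cells (0.37 ± 0.15). Igha, the heavy chain constant gene of IgA, was at 9.39, 9.72 and 10.01 in wild-type mice and at 7.61, 8.28 and 8.04 in knockout mice. The 3 knockout values lay more than 1 unit below the lowest wild-type value. Igha differed by -1.73 ± 0.51 with an adjusted p of 0.751 over 12 arrays, and of 0.00944 with the replicate block on the untreated arrays alone. With the probe sets of Igha averaged the difference was -0.52. In treated mice it was 0.98 ± 0.51, an interaction of 2.71 ± 0.72 (adjusted p = 0.0164 with limma). Igha was the 1 separated gene of 13 in the list of plasma cells and IgA transport, where 5.63% of all genes were separated downward. The median of that list was 0.24. Of 12 B cell genes none was separated.

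No interferon response gene was called. Of 33 measured members 1 was separated upward (7.47% of all genes) and 1 downward (5.63% of all genes), and the median was -0.05. That median was 0.31 between the replicate 1 mice and -0.26 between replicates 2 and 3. In replicates 2 and 3 alone, 19 members were separated downward and 2 upward, where 22.8% and 23.2% of all genes were. Over all 6 untreated arrays the downward gene was Psmb9, an immunoproteasome subunit (-0.34 ± 0.19). The upward gene was Rsad2, which encodes viperin, an antiviral enzyme induced by interferon. Rsad2 was at 6.69, 6.64 and 6.45 in wild-type mice and at 7.96, 8.03 and 7.82 in knockout mice (1.35 ± 0.34). Both groups were tight and more than 1 unit apart. Its limma adjusted p was 0.744 in the fit over 12 arrays and 0.0435 in the fit of the 6 untreated arrays, 0.0135 there with the replicate block, and in treated mice the knockout difference was -1.28. In the 250 bases before its start, from RefSeq on GRCm38.p6 at chr12:26456453-26456702, minus strand, the interferon-stimulated response element core (GAAA, any 2 bases, then GAAA) was searched on both strands. It was found 1 time, reading TTTCATTTTC on the strand printed, its first base 120 bases before the start and in capitals below.
Rsad2: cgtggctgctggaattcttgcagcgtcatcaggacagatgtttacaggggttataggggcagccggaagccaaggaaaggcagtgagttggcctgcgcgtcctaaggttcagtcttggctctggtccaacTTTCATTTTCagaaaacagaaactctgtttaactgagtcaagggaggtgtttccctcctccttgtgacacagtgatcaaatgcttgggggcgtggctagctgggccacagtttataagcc
The core stands in 2.98% of the 32851 promoters of this length.

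Some enteroendocrine genes were separated above wild type and none below it. Of 20 measured genes none was called, 5 were separated upward and 0 downward, against 7.47% of all genes upward, and the median was 0.19. The knockout mean was higher for 14 of them and lower for 6. The hormone gene Cck differed by -0.26 ± 0.26, with overlapping values. Gcg, which encodes proglucagon and its gut product GLP-1, was at 7.72, 6.87 and 6.69 in wild-type mice and at 8.19, 9.97 and 9.14 in knockout mice (2.01 ± 0.5, adjusted p = 0.744 with limma). Isl1, a transcription factor of hormone cells, was at 3.69, 3.63 and 4.25 against 4.62, 4.28 and 4.76 (0.7 ± 0.17). Scg3, a granule protein, differed by 0.52 ± 0.18, and Reg4, a lectin of deep secretory cells, by 0.54 ± 0.27. In treated mice the list median was -0.83. There 12 members were separated downward and 3 upward, against 22% and 24.2% of all genes. The treated knockout difference was -1.32 ± 0.5 for Gcg and -0.84 ± 0.17 for Isl1, with interaction adjusted p of 0.00469 and 0.000755 in limma.

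Pancreatic islet cells make some of the same products, and their values are given here. The islet list, which shares Gcg and Sst with the enteroendocrine list, had 3 of 10 members separated upward, against 7.47% of all genes, and a median of 0.67. That median was 0.01 between the replicate 1 mice and 1.02 between replicates 2 and 3. Iapp, the amyloid peptide of beta cells, was at 3.5, 4.67 and 4.54 in wild-type mice and at 3.29, 7.42 and 7.29 in knockout mice, and Ins2, insulin, at 4.17, 6.1 and 5.64 against 4.49, 7.56 and 7.39. Both were highest in the knockout replicates with high pancreatic RNA. The part of islet RNA in the Gcg and Isl1 differences was not tested.

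No gene of the secretory or absorptive lineages was called. All 13 goblet cell genes had a higher knockout mean, with a median of 0.37, but that median was 0.91 between the replicate 1 mice and 0.05 between replicates 2 and 3. Muc2, the main secreted mucin, was at 10.8, 11.08 and 11.04 against 11.71, 11.12 and 11.03, and Tff3, the trefoil peptide secreted with it, differed by 0.33 ± 0.19. Spdef, the goblet and Paneth cell transcription factor, was separated at 5.53, 6.48 and 6.82 against 6.91, 7.02 and 7.12. The Paneth cell lysozyme Lyz1 differed by 0.06 ± 0.23, and the antimicrobial lectins Reg3b and Reg3g by -0.54 ± 0.42 and -0.35 ± 0.41, all with overlapping values. Of 21 genes of brush border digestion and nutrient transport, 20 had a lower knockout mean and 4 were separated downward, where 5.63% of all genes were, with a median of -0.17. The median was 0.04 between the replicate 1 mice and -0.26 between replicates 2 and 3. In replicates 2 and 3 alone, 19 members were separated downward and 0 upward, where 22.8% and 23.2% of all genes were. The 4 separated over all replicates included the fructose transporter Slc2a5 (-0.63 ± 0.57) and the glucose transporter Slc5a1 (-0.23 ± 0.32).

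No crypt gene passed the test. The stem cell marker Lgr5 was at 6.15, 6.67 and 6.7 against 7.18, 6.73 and 6.59, Olfm4 differed by -0.01 ± 0.41, and the proliferation marker Mki67 by 0.18 ± 0.3. Of 26 genes of DNA replication and mitosis none was separated, and their median of 0.14 changed sign in 4 of 25 settings. It was 0.57 between the replicate 1 mice and -0.03 between replicates 2 and 3. In replicates 2 and 3 alone, 9 of the 26 were separated downward and 0 upward, where 22.8% and 23.2% of all genes were. Among 22 genes of endoplasmic reticulum stress and protein folding, 20 had a higher knockout mean, 3 were separated upward (7.47% of all genes were), and the median was 0.31. That median was 0.04 between the replicate 1 mice and 0.33 between replicates 2 and 3, and the list mean was higher in replicates 2 and 3 of both genotypes, as was pancreatic RNA, whose part was not tested. The 3 were Ern1, the IRE1 sensor (7.07, 7.41 and 7.36 against 7.63, 7.72 and 7.87), the lectin chaperone Canx (0.35 ± 0.12) and the stress factor Atf3 (0.86 ± 0.35). Of 28 genes of oxidative phosphorylation, 7 were separated downward and 1 upward, by small amounts, where 5.63% and 7.47% of all genes were. Their median was -0.07, and the subunit with the smallest p, Sdhb, differed by -0.27 ± 0.11.

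Barrier and efflux genes, which have been linked to TLR2 in the gut, did not pass the test at baseline in the fit over 12 arrays. Abcb1a, the P-glycoprotein pump, was at 10.46, 9.96 and 9.76 in wild-type mice and at 9.52, 9.39 and 9.76 in knockout mice (-0.5 ± 0.18, adjusted p = 0.786 with limma). The highest knockout value equalled the lowest wild-type value at this precision. Its paralogue Abcb1b was dim, at 3.98, 3.84 and 3.71 against 3.85, 3.77 and 3.55. Of the 14 ABC transporters measured, Abca1, a cholesterol exporter (-0.88 ± 0.32), and Abcg5, a subunit of a sterol exporter (-0.66 ± 0.58), were separated downward and Abcc4 (0.32 ± 0.19) upward. The shares of all genes were 5.63% downward and 7.47% upward. Gja1, the main gap junction connexin of many tissues, was at 7.02, 7.28 and 7.37 against 7.4, 7.17 and 7.18. Of 25 junction and connexin genes, the claudins Cldn23 (0.49 ± 0.24) and Cldn4 (0.37 ± 0.32) were separated upward, where 7.47% of all genes were. Cldn8, another claudin, was at 3.43, 5.87 and 6.38 in wild-type mice and at 4.9, 7.14 and 7.64 in knockout mice, with overlapping ranges. Its difference of 1.33 ± 0.97 had an adjusted p of 0.817 over 12 arrays, and of 0.0145 with the replicate block on the untreated arrays alone.

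**Figure D4:**
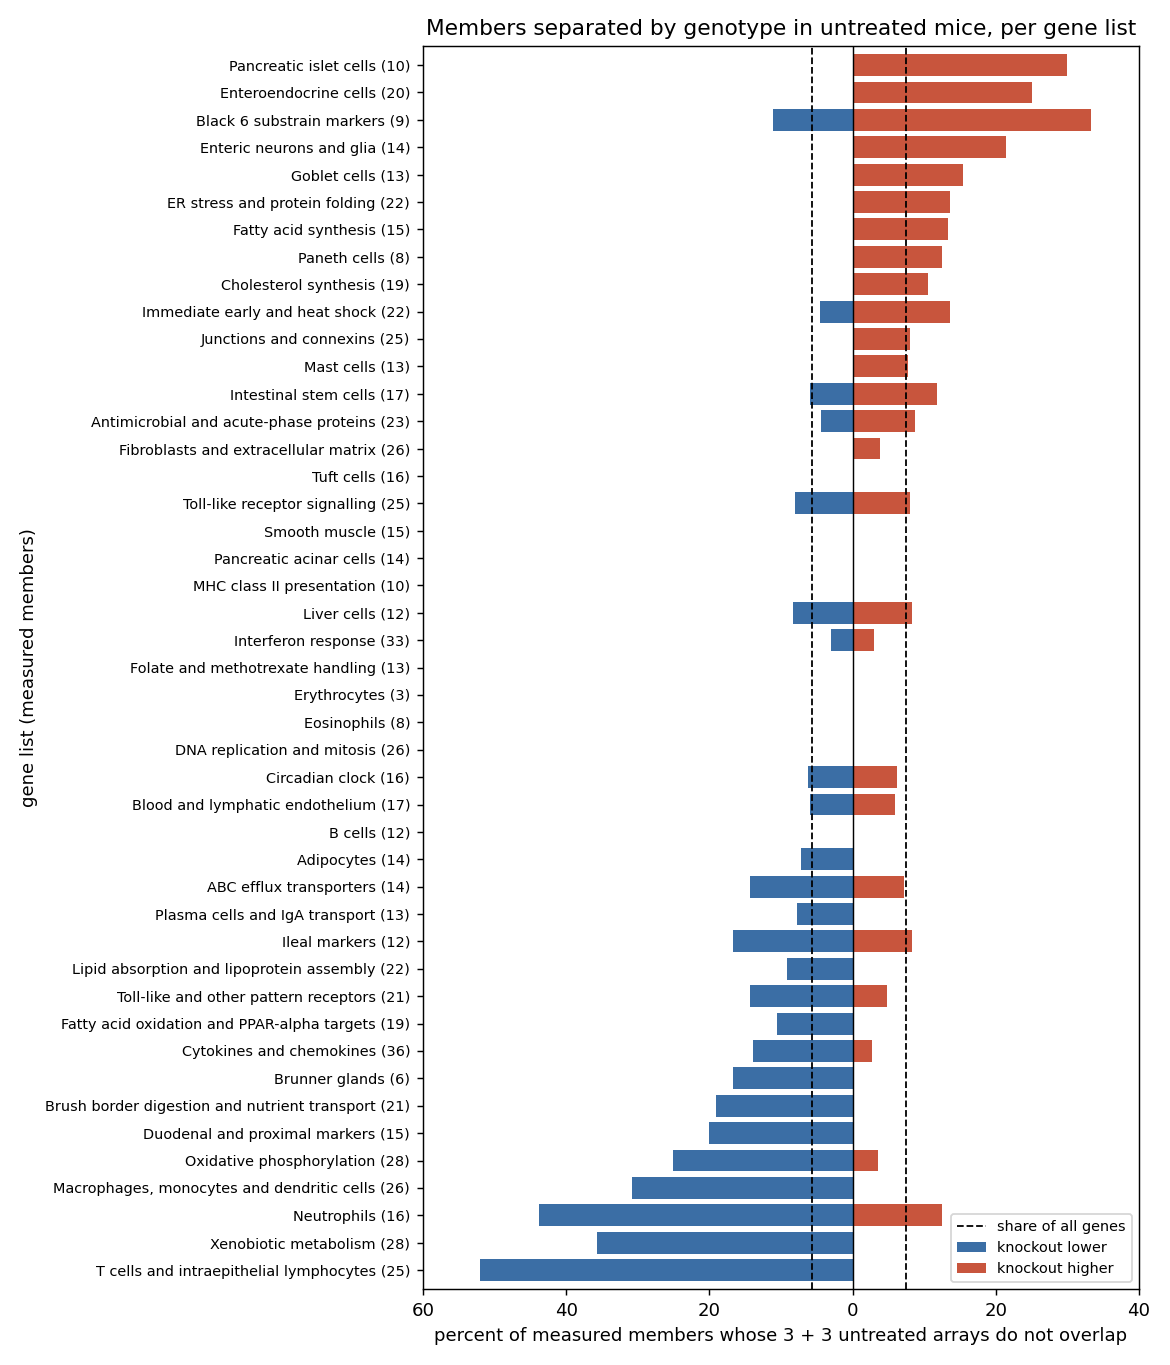
Percent of the measured members of each of the 45 gene lists (number in brackets) whose 3 knockout arrays all lie above (red, to the right) or all below (blue, to the left) the 3 wild-type arrays; dashed lines mark the shares over all genes, 7.47% above and 5.63% below. The longest blue bar is that of T cells and intraepithelial lymphocytes, with 13 of 25 members.

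Genes known to differ between black 6 substrains or in copy number among such mice were listed apart, since the labels describe the genotypes as separate strains. Of 9 measured, 3 were separated upward and 1 downward, where 7.47% and 5.63% of all genes were. Entpd4 is described above. Ide, the insulin-degrading enzyme, was at 8.17, 7.99 and 8.02 in wild-type mice and at 8.87, 8.75 and 8.81 in knockout mice (0.75 ± 0.16), and its neighbour Fgfbp3 differed by 0.4 ± 0.22. Wdfy1, an endosomal adaptor of TLR3 and TLR4, was at 7.34, 7.19 and 7.22 against 6.51, 5.9 and 6.23 (-1.04 ± 0.3, adjusted p = 0.744 with limma, and 0.0477 with the replicate block on the untreated arrays alone). The ranges of Ide and Wdfy1 lay well apart. Nnt, a mitochondrial transhydrogenase with a known deletion in C57BL/6J mice, was at 8.76, 8.67 and 8.72 against 8.76, 8.94 and 7.76. It did not separate the genotypes in untreated mice. In treated mice Nnt was at 8.91, 8.77 and 8.74 against 7.27, 7.53 and 7.86 in knockout mice. That difference was -1.25 ± 0.26 (adjusted p = 0.00221 with limma), and 22% of all genes were likewise separated downward there. The brighter of its 2 probe sets is shown. The effect of strain background and that of the TLR2 allele cannot be told apart in this design.

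The same contrast in methotrexate-treated mice uses other animals. Of the 30 genes with the smallest p at baseline, 27 had a knockout difference of the same sign in treated mice. For 21 of these the treated arrays also did not overlap, where 24.2% of all genes were separated upward and 22% downward. An adjusted p under 0.05 with limma was reached by 19. In treated mice 36.9% of all genes reached that adjusted p, 20.2% upward and 16.8% downward, so a call there was common. Ide differed by 0.7 ± 0.16 in treated and by 0.75 ± 0.16 in untreated mice, Churc1 by -1.63 ± 0.18 and -1.28 ± 0.18, and Itgae by -0.83 ± 0.14 and -0.61 ± 0.14. Prkch, Rimbp2 and Spaca4 had the opposite sign.

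**Figure D5:**
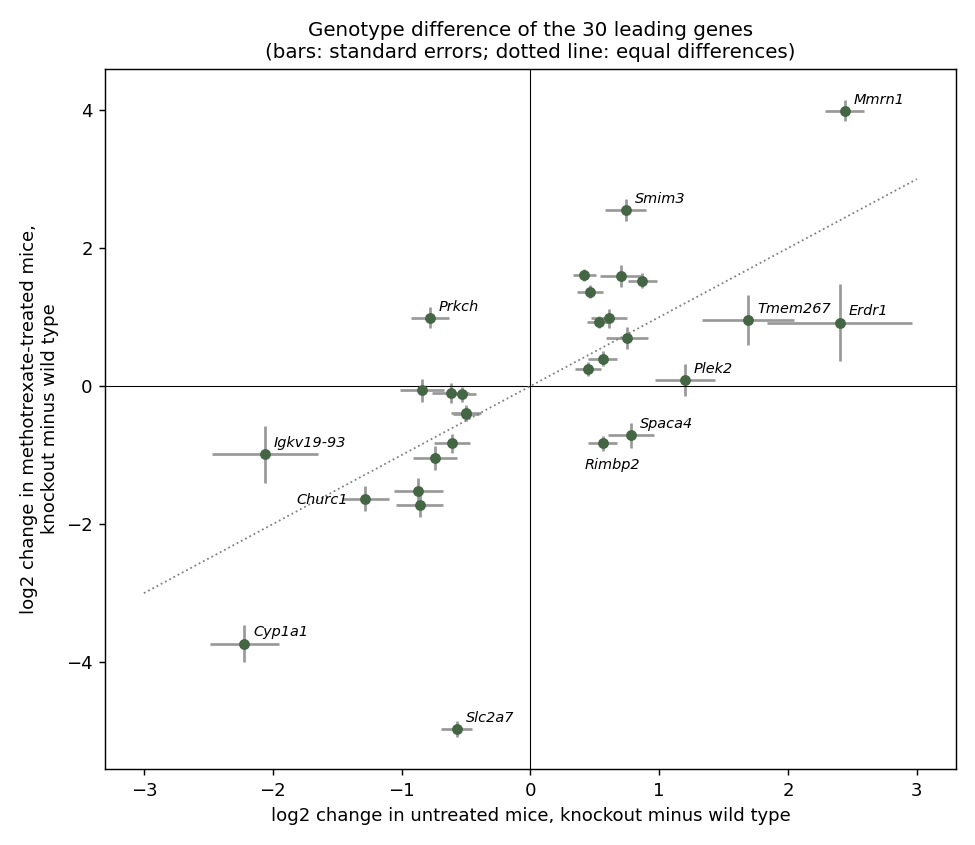
Log2 difference of knockout minus wild type in untreated mice (horizontal) and in methotrexate-treated mice (vertical) for the 30 genes, with standard errors from the limma fit; 3 mice per group. Points on the dotted line would have equal differences; 27 genes lie in the quadrants of equal sign, and Prkch, Rimbp2 and Spaca4 do not.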

How the data were processed

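RNA was cleaned of DNA and copied into labelled cDNA, as the labels' protocols state. Deposited by the authors was 1 log2 signal per probe set and array, made with RMA (background correction, normalisation between arrays and probe summary), per the submitters' processing notes; RMA evens out signal distributions, so shifts common to all genes are not seen. The genome build of the array annotation is not given in the sources used here. Of 35556 probe sets, 21218 had 1 gene symbol, 1881 several and 12457 none here. Where a gene had more than 1 (1386 genes), the one with the highest mean was used.

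The 12 arrays were fitted with limma 3.58.1 in R 4.3.3 (lmFit, eBayes), with a mean for each of 4 groups and 8 residual degrees of freedom. P-values were adjusted by Benjamini-Hochberg over 18820 genes, and a gene was called, or said to rise or fall, at an adjusted p under 0.05. Every ± is limma's standard error, and values listed for 3 mice are in the order of replicates 1, 2 and 3. Separated means that the arrays of the genotypes do not overlap. On simulated data of this size, 88 of 100 genes changed by 1 and 93 of 100 changed by 2 were recovered, with 5 false calls. The simulated noise was independent between genes and arrays, without the pancreatic and adipocyte RNA that arrays here share. These recovered shares therefore do not measure what could be detected in the real data. There, 69 genes differed by at least 1 and 2 of them were called. Arrays give no read depth, and their number limits the precision.

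The comparison, the 45 gene lists and the genes named were chosen with earlier results of these data known, so lists are described by counts and medians without a test. Named are the called genes, the 30 genes with the smallest p among separated genes, the leading members of each list by p (at most 3), the 5 with the smallest p near Tlr2, and 20 genes regardless of value. Further list members named beside these, and Ahr, Xist and Kdm5d, were chosen after their values were seen. Gene order came from RefSeq (GRCm38.p6), matched by Entrez ID for 18790 genes.

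Deviations from the group means of same-numbered untreated arrays correlated at 0.67, 0.5 and 0.5. A fit of the untreated arrays with the replicate number as a block is therefore given where it changed a call. The planned block over all arrays of the series changed no call. Unless a block is named, the SEs and p-values are those of the fit without it. The labels do not name the replicate number as a batch. Over all 4 groups, the 18 same-numbered pairs ranged from -0.49 to 0.67. Replicates 2 and 3 correlated across numbers as well (0.45 and 0.48), as did their pancreatic RNA. The closing section gives the alternatives tried.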

Additional observations from a re-analysis of the deposited data

Results flagged for a closer look

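For 15 of the 30 genes with the smallest baseline p, the genotype difference in treated mice differed from that in untreated mice by the interaction term of the limma fit (adjusted p under 0.05 over all genes). The interaction is the treated difference minus the untreated one, so it shares the untreated arrays with the comparison that chose these genes. The share of all genes with such an interaction was not counted. For genotype, 36.9% of all genes were called in treated mice and 0.0106% in untreated mice. The 15 are therefore not read as particular to these 30 genes. The cause of these differences was not tested.

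For 10 genes the knockout difference kept its sign and was larger in treated mice. Mmrn1 went from 2.44 to 3.99, an interaction of 1.55 ± 0.21 (limma adjusted p = 0.000237), and Cyp1a1 from -2.22 to -3.73, an interaction of -1.52 ± 0.38 (adjusted p = 0.0122). The interaction was 0.66 for Entpd4, 0.39 for Trmt112, 1.2 for Col5a1, 1.81 for Smim3, 0.91 for Ahi1 and 0.91 for Dusp3. Slc2a7, a hexose transporter of the brush border, went from -0.57 to -4.97 (interaction -4.4 ± 0.17, adjusted p = 1.52e-07), and Cd8a from -0.86 to -1.72 (interaction -0.86 ± 0.26, adjusted p = 0.0335).

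For 3 genes the sign turned. Prkch went from -0.78 to 0.99 (interaction 1.77 ± 0.22), Rimbp2 from 0.56 to -0.83 (-1.39 ± 0.16) and Spaca4 from 0.78 to -0.71 (-1.5 ± 0.25), with limma adjusted p of 0.000134, 8.22e-05 and 0.00108. For 2 genes the difference was close to 0 in treated mice. Plek2 went from 1.2 to 0.09 (interaction -1.11 ± 0.33) and Oas1d from -0.84 to -0.06 (interaction 0.79 ± 0.24), with adjusted p of 0.0297 and 0.0361.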

How the results depend on the processing

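The count of 2 called genes, Mmrn1 and Cyp1a1, was the same with a minimum log2 fold of 1, without dim genes, with a gene's probe sets averaged, with all of them tested, after quantile normalisation, after centring arrays, and with the replicate block over all 12 arrays. The block over the 6 untreated arrays alone, added after seeing the data, called 21 genes (16 higher, 5 lower). Those not named in the report are Cbs, Tent5c, Fam174b, Gal, Pyy, Slc38a3, Sntb1, Slc7a5, Hid1 and Arfgef3. Fitting only the untreated arrays called 3 (2 higher), a trended robust variance 4 (2 higher, 2 lower), and the pancreatic acinar covariate 3 (2 higher). Array weights called 558 (343 higher, 215 lower). With acinar and adipocyte covariates 1 gene was called and 0 were lower, as without both replicate 1 arrays, a setting also added after seeing the data. With 1 array left out, between 1 and 6 genes were called, 1 to 4 higher and 0 to 2 lower. The lowest count of 1 came from leaving out any wild-type untreated array, knockout untreated replicate 2 or 3, or replicate 2 of a treated group. Leaving out knockout untreated replicate 1 called 4 (Mmrn1, Prss53, Shank1 and Slc30a8), and treated knockout replicate 1 called 6. The cause of these shifts was not tested.

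Of the 177 named genes, 29 changed sign in at least 1 setting, but none of the 30 with the smallest p. Of the 45 lists, 21 had a median that changed sign, among them B cells (-0.73 to 0.07) and interferon response (-0.26 to 0.11), while T cells and intraepithelial lymphocytes, xenobiotic metabolism and enteroendocrine cells did not.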

Other observations

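Single genes of other groups were separated between the untreated genotypes without a call. Arntl, which encodes the clock activator BMAL1, was at 6.64, 6.56 and 6.39 in wild-type mice and at 7.66, 7 and 7.02 in knockout mice (0.7 ± 0.19), and Hlf, a clock output factor, differed by -0.21 ± 0.27. They were the 2 separated genes among 16 of the circadian list, where 7.47% of all genes were separated upward and 5.63% downward. The time of day of sampling is not given in the labels. Scd2, a fatty acid desaturase, was at 7.5, 7.63 and 8.07 against 8.43, 8.71 and 8.51 (0.81 ± 0.24). Kit, the receptor of mast cells and pacemaker cells, was at 6.01, 6.43 and 6.2 against 6.72, 6.58 and 6.71 (0.46 ± 0.12). Knockout values of these 3 lay above all wild-type values, with limma adjusted p of 0.744 to 0.751.

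Fgf15, the ileal hormone that restrains bile acid synthesis, was dim, at 2.64, 2.91 and 2.63 in wild-type mice and at 3.53, 3.06 and 2.98 in knockout mice (0.46 ± 0.16). Hspb1, a small heat shock protein, was at 6.84, 6.92 and 6.6 against 7.52, 7.37 and 7.51 (0.68 ± 0.33). Of 14 genes of enteric neurons and glia, 3 were separated upward and 0 downward, where 7.47% and 5.63% of all genes were, with a median of 0.16. They were Nos1 (0.19), the neuronal filament gene Prph (0.32) and Snap25 (0.49), a protein of vesicle release. No gene was separated among 26 of DNA replication and mitosis, 16 of tuft cells, 15 of smooth muscle and 13 of folate and methotrexate handling.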
